A study of Mus musculus with 31 samples.

Results

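The interferon regulatory factors (IRFs) are a family of transcription factors, and the genes described here are the 8 members Irf1, Irf2, Irf3, Irf4, Irf5, Irf7, Irf8 and Irf9, taken by gene symbol from the 46072 genes of the abundance tables. All 8 were present, each as 1 gene, in all 31 libraries. RM-9, a mouse prostate cancer cell line, and MC-38, a mouse colon cancer cell line, were grown under the skin of the right hind leg of male C57BL/6J mice, and a single dose of 15 Gy radiotherapy (RT) was given to the tumor. Tumors were collected from control mice without RT and from mice 3 h, 12 h and 24 h after RT, with 4 mice in each group except RM-9 RT 24 h, which held 3 mice. Both models are single cell lines in otherwise untreated hosts, so each tumor held the cells of the line together with host immune and stromal cells. The control mice carried the 3 h time in their labels, and the 3 RT groups of a model shared the same 4 controls, so a change at 12 h or 24 h cannot be told apart from a change with time without RT. The RM-9 and MC-38 libraries carry separate sequencing numberings, so tumor model and any difference between sequencing runs cannot be told apart either. Whether same-group mice were processed independently is not stated, and the p-values measure only the spread between these mice.

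IRF proteins share a DNA-binding domain that recognises GAAA-containing elements, among them the interferon-stimulated response element (ISRE). Irf3 and Irf7 lie downstream of nucleic acid sensors: after phosphorylation by the kinases Tbk1 and Ikbke they enter the nucleus and switch on type I interferon genes such as Ifnb1. Secreted interferon binds receptors that signal through Jak kinases to Stat2 and Irf9, which act within the ISGF3 complex to induce interferon-stimulated genes, Irf7 among them. Irf1 is induced by interferon gamma and drives antigen presentation genes, while Irf2 binds the same elements and often opposes Irf1. Irf5 acts downstream of Toll-like receptors in myeloid cells, Irf8 is required for the monocyte and dendritic cell lineages, and Irf4 acts in activated lymphocytes and some dendritic cells.

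The libraries held 21.4 to 29.4 M aligned reads. Expression was given as TPM, a relative transcript abundance, that is, a unit corrected for gene length whose sum is fixed, so that each library has an equal total. One mitochondrial gene, mt-Nd4l, took 35.6 to 43.5% of all TPM in RM-9 and 12.9 to 29.6% in MC-38 libraries, so that a change in this share moves the TPM of all other genes. Mouse 1 of the MC-38 controls stood apart, with 29.6% of its TPM in mt-Nd4l against 15.8 to 21.1% in the other 3 controls, and with a summed level of 5 skeletal muscle markers of 9783 TPM against 16.9 to 1592 TPM. For this reason each change is given on deposited TPM and again after median-ratio scaling, which sets the typical gene to the same level in every library of a fit. On deposited TPM the median change of all tested genes, on the log2 scale and in the order of the RT times, was 0.06, -0.19 and -0.04 in RM-9 and 0.19, 0.33 and 0.22 in MC-38, and it was 0.62 between the controls of MC-38 and RM-9, while after scaling it lay between -0.02 and 0.05. The keratin and adhesion genes that mark epithelium (5 genes, with Krt8 the most abundant) summed to 1155 to 1395 TPM in RM-9 controls and to 0.57 to 1.104 TPM in MC-38 controls. In both models 2 of the 4 markers of the labelled tissue (prostate for RM-9, colon for MC-38) were at 0 in every control mouse. The 4 colon markers summed to 0.40 to 1.13 TPM in MC-38 controls, where Cdx2, a factor that marks intestinal epithelium, was at 0. In RM-9 controls the colon markers were higher, at 5.51 to 8.20 TPM. The 4 prostate markers summed to 1.82 to 2.64 TPM in RM-9 and 2.14 to 3.75 TPM in MC-38 controls. Neither list was thus higher in the model of its labelled tissue.

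The members lie on 6 chromosomes (positions in the files match mouse build GRCm38): Irf1 at chr11:53770014-53778374, Irf2 at chr8:46739745-46847458, Irf3 at chr7:44997648-45002848, Irf4 at chr13:30749226-30766927, Irf5 at chr6:29526625-29541871, Irf7 at chr7:141262706-141266481, Irf8 at chr8:120736358-120756694 and Irf9 at chr14:55603571-55610030. Irf7 is on the minus strand and the other 7 are on the plus strand. Exons of 5 members overlap exons of another gene. The overlap with Irf5 is the longest, 411 bases of Tnpo3 on the opposite strand (14.1% of the exonic bases of Irf5), and Irf9 shares 123 bases (2.28%) with Rnf31 on the same strand. The kit kept strand, but how the counting used it is not given in the sources used here.

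The sequences before the gene starts are shown for the 3 members whose promoter held one of the interferon motifs and for Irf7, the member that changed most after RT. RefSeq promoter sequences (GRCm38.p6) were found for all 8 members, and the 250 bases before the start were searched on both strands for GAAANNGAA, an ISRE-like core, and TTCNNNGAA, a core like the gamma-activated site of interferon gamma-induced genes. Capitals mark the matches, and no stretch matched both motifs.

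Irf1, plus strand, chr11:53769764-53770013: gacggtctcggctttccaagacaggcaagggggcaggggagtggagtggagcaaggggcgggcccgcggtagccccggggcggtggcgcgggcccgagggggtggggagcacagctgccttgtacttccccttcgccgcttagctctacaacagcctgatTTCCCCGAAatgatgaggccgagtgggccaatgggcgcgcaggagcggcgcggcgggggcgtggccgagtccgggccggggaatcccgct
Irf2, plus strand, chr8:46739495-46739744: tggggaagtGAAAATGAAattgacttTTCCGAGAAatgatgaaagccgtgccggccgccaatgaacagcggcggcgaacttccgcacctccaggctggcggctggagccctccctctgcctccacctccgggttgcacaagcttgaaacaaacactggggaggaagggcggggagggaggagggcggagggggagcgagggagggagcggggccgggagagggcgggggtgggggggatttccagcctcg
Irf8, plus strand, chr8:120736108-120736357: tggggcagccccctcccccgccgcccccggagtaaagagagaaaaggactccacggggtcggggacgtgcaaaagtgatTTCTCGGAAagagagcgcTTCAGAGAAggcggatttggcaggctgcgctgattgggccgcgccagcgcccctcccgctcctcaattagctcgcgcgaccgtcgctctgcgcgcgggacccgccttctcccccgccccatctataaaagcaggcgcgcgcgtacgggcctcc
Irf7, minus strand, chr7:141266425-141266674: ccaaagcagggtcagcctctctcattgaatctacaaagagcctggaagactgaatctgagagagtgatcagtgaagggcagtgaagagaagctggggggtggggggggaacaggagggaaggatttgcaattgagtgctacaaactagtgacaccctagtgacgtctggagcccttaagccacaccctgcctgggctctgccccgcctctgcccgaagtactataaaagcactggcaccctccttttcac

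The ISRE-like core was found in 7.13% and the gamma-activated-site-like core in 7.02% of the 32851 promoter windows, and both together in 0.752%. Irf2 held both, with GAAAATGAA 241 to 233 bases and TTCCGAGAA 224 to 216 bases before the start. Irf1 held TTCCCCGAA 90 to 82 bases before the start. Irf8 held a pair of gamma-activated-site-like cores, TTCTCGGAA at 171 to 163 and TTCAGAGAA at 153 to 145 bases. Irf1, Irf8 and Irf9 each have 2 listed windows, and the second windows of Irf1 and Irf8 and both windows of Irf9 held neither core. For Irf3, Irf4, Irf5 and Irf7, with 1 window each, neither core was in the searched letters. The Irf7 window starts 57 bases inside the gene as the files place it, and the nearer window of Irf9 lies 414 bases from its gene start in the files.

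In tumors of control mice, the order of the members differed between the models below their common top gene, Irf7. In RM-9 controls Irf7 averaged 29.5 ± 7.52 TPM (SD, n = 4), followed by Irf3 at 20.4 ± 1.96, Irf1 at 18.2 ± 3.04, Irf2 at 11.3 ± 0.804, Irf8 at 9.83 ± 1.5, Irf5 at 9.43 ± 1.93, Irf9 at 7.78 ± 1.13 and Irf4 at 0.177 ± 0.0564 TPM. The mice of neighbouring genes in this order overlapped except between Irf1 and Irf2 and between Irf9 and Irf4. In MC-38 controls Irf7 averaged 189.8 ± 26.9 TPM and Irf1 164 ± 36.5 TPM, and these overlapped each other but not the next gene. Irf9 followed at 37.2 ± 7.41, Irf2 at 35.7 ± 6.16, Irf3 at 28.2 ± 8.61, Irf5 at 19.95 ± 3.80, Irf8 at 17.1 ± 1.83 and Irf4 at 0.323 ± 0.144 TPM, with overlap between neighbours down to Irf8. Irf4 stayed between 0.035 and 0.496 TPM in all 31 libraries, with a mean read depth per base of 0.078 to 0.772, so its values rest on few reads. The level of one member against another also depends on how the deposited values were formed. FPKM, the deposited length-corrected unit from which TPM follows, equalled that implied by the read coverage for Irf2 and Irf4. It was higher for all other members, by a median of 1.71 times for Irf7 up to 3.29 (RM-9) and 3.39 (MC-38) times for Irf8. By mean coverage, Irf2 in RM-9 controls (24.5) stood above Irf3 (23.2) and Irf1 (18.2), and Irf2 in MC-38 controls (54.3) above Irf9 (27.3). The order given here is therefore that of deposited TPM alone.

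**Figure D1:**
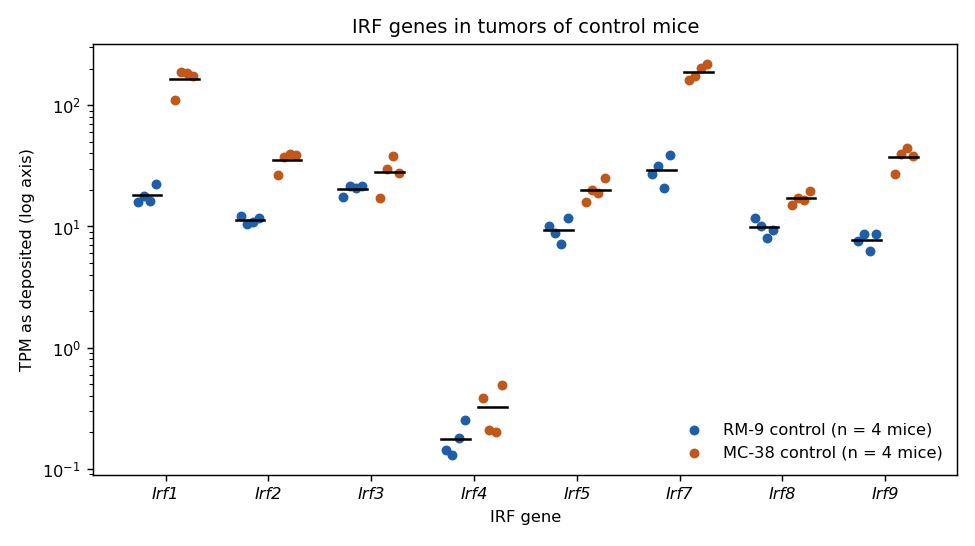
TPM of each IRF gene (log axis) in each of the 4 control mice of RM-9 (blue) and MC-38 (orange), with the group mean as a black line. Irf1, Irf2, Irf5, Irf7, Irf8 and Irf9 were higher in every MC-38 mouse than in every RM-9 mouse, and Irf4 lay under 0.5 TPM in all 8 mice.

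The comparison of the control groups asks how the family differs between the tumor models before RT. Irf1 measured 15.9, 18, 16.3 and 22.5 TPM in the 4 RM-9 controls and 109.9, 186, 185 and 175 TPM in the 4 MC-38 controls. The log2 difference was 3.12 ± 0.20 (SE; limma adjusted p = 1.2e-13), or 8.71-fold, and 2.46 ± 0.16 after scaling (adjusted p = 6.0e-13). Irf7 measured 27.0, 31.4, 20.9 and 38.7 TPM in RM-9 and 161, 174, 203 and 221 TPM in MC-38 controls. Its log2 difference was 2.69 ± 0.29 (adjusted p = 3.9e-09) and 2.03 ± 0.29 after scaling (adjusted p = 8.6e-07). Irf9, the DNA-binding subunit of ISGF3, was higher by 2.175 ± 0.19 on the log2 scale (adjusted p = 7.5e-11; 1.53 ± 0.17 after scaling). Irf2 was higher by 1.596 ± 0.11 (adjusted p = 1.7e-12; 0.94 ± 0.09 after scaling). On deposited TPM every MC-38 control lay above every RM-9 control for these 4 genes, and for Irf5 and Irf8 as well. The exact two-sided permutation p of the mean TPM was 0.0286 for each, the smallest that 4 against 4 mice can give. This separation was not examined on scaled values, and the share of all genes that show it was not counted.

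The other 4 members depended on the scaling. Irf5 and Irf8 were higher on deposited TPM by 1.05 ± 0.19 (adjusted p = 1.8e-05) and 0.78 ± 0.14 (adjusted p = 1.1e-05), but after scaling the differences were 0.40 ± 0.20 (adjusted p = 0.0855) and 0.13 ± 0.15 (adjusted p = 0.468). For Irf3, the sensor-driven factor, 17.5 to 21.7 TPM in RM-9 stood against 17.1 to 38.01 TPM in MC-38 controls, and the mice overlapped. Its difference was called on deposited TPM at 0.41 ± 0.17 (adjusted p = 0.0299), turned to -0.25 ± 0.12 after scaling (adjusted p = 0.0611), and lost its call without RM-9 control mouse 1 (adjusted p = 0.0953) and without MC-38 control mouse 2, 3 or 4 (adjusted p = 0.0788, 0.177 and 0.0548). Irf4 differed by 0.27 ± 0.13 (adjusted p = 0.0657), which passed the threshold without RM-9 control mouse 4 (0.0435) and without MC-38 control mouse 2 or 3 (0.0348 and 0.0312). In all, 7 of 8 members were called higher in MC-38 on deposited TPM, where 64.4% of all genes tested were called higher and 10.8% lower. After scaling 4 of 8 were called higher, where 34.4% of all genes were called higher and 30.7% lower, and no member was called lower in either.

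Of the 72 tested signalling genes around the family, 60 were called higher and 2 lower in MC-38 controls on deposited TPM, and 49 higher and 10 lower after scaling. The counts of each list below stand beside the shares over all genes tested. These were 64.4% called higher and 10.8% lower on deposited TPM, and 34.4% and 30.7% after scaling. Of the 9 receptor and JAK-STAT genes, 6 were called higher and 0 lower on deposited TPM, and 4 and 3 after scaling. Of the 18 sensors, adaptors and kinases, 15 were called higher and 1 lower on deposited TPM, and 10 and 3 after scaling. All 17 type I interferon-stimulated genes were called higher on deposited TPM and after scaling, with a median log2 difference of 2.99 after scaling against 0.05 over all genes. Rsad2, an antiviral radical enzyme, averaged 4.22 ± 0.834 TPM in RM-9 and 202 ± 72.7 TPM in MC-38 controls. Of the 15 interferon gamma-induced genes, all 15 were called higher on deposited TPM and 14 after scaling. Cxcl10, a chemokine for T cells, averaged 30.5 ± 7.08 and 841 ± 185 TPM, and Ido1, a tryptophan-degrading enzyme, 0.182 ± 0.0361 and 24.2 ± 6.998 TPM. Among the sensors the largest differences were those of Mb21d1, the DNA sensor cGAS (0.401 ± 0.128 against 14.8 ± 3.79 TPM), Ifih1, the RNA sensor MDA5 (1.15 ± 0.297 against 23.0 ± 6.29 TPM), and Tlr3, a receptor for double-stranded RNA (0.821 ± 0.283 against 16.02 ± 3.95 TPM). Tmem173, the adaptor STING that cGAS activates, was called lower in MC-38, by 0.35 ± 0.11 on deposited TPM and by 1.01 ± 0.11 after scaling. Stat2, a partner of Irf9 in ISGF3, was higher by 3.44 ± 0.25 on the log2 scale of deposited TPM. Of the IRF partners 5 of 11 were called higher and 1 lower on deposited TPM, and 2 and 4 after scaling, with Ikzf1 and Batf higher on both scales (1.68 ± 0.29 and 1.35 ± 0.21 as deposited) and Spi1 on deposited TPM alone (1.03 ± 0.24). Leukocyte markers moved with these genes: the 4 markers, of which Cd52 was the most abundant, summed to 122 to 200.2 TPM in RM-9 and 313 to 467 TPM in MC-38 controls, and the 8 macrophage markers to 377 to 600.0 and 855 to 1357 TPM. Their part in the differences was not tested, and in these bulk samples fewer cells of a type and less RNA per cell cannot be told apart.

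After RT, MC-38 tumors showed their clearest IRF change at 24 h, in Irf7 and Irf2. Irf7 measured 161, 174, 203 and 221 TPM in the controls and 420.4, 281, 451 and 338 TPM in the 4 mice at 24 h, each above every control. The log2 fold change was 0.96 ± 0.15 (limma adjusted p = 0.00114), or 1.94-fold, and 0.69 ± 0.16 after scaling (adjusted p = 0.0108), with an exact permutation p of 0.0286 on either scale. Irf2 measured 26.5, 37.8, 39.5 and 39.0 TPM in the controls and 59.3, 56.3, 49.3 and 51.1 TPM at 24 h, again without overlap. Its log2 fold change was 0.61 ± 0.12 (adjusted p = 0.00501) and 0.34 ± 0.09 after scaling (adjusted p = 0.0176). Both calls held with each of the 8 mice left out in turn, but that of Irf2 was lost when only the controls and the 24 h mice were fitted (adjusted p = 0.0765).

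Irf1 and Irf5 rose at 24 h on deposited TPM but not past the threshold after scaling. Irf1 measured 284, 272, 216 and 227 TPM at 24 h against 109.9 to 186 TPM in the controls, and every RT mouse lay above every control on both scales. Its log2 fold change was 0.63 ± 0.19 (adjusted p = 0.0372) and 0.36 ± 0.16 after scaling (adjusted p = 0.132). Irf5, the Toll-like receptor factor of myeloid cells, measured 37.7, 23.9, 30.1 and 29.3 TPM against 15.9, 20.2, 18.7 and 25.0 TPM, and 1 RT mouse lay within the control range. Its change was 0.59 ± 0.17 (adjusted p = 0.0328) and 0.33 ± 0.19 after scaling (adjusted p = 0.264). Control mouse 1, the library that stood apart, had the lowest Irf1 and Irf5 of the controls, and without it the changes were 0.44 (adjusted p = 0.113) and 0.49 (adjusted p = 0.0935). The Irf1 call was also lost without control mouse 4 (adjusted p = 0.0571) and without RT mouse 1, 2 or 4 (0.0717, 0.0981 and 0.0669). The Irf5 call was also lost without control mouse 2 (0.0526) and without RT mouse 1, 3 or 4 (0.0732, 0.0588 and 0.0747). Irf3, Irf4, Irf8 and Irf9 changed by -0.01 to 0.34 on the log2 scale of deposited TPM and were not called, with adjusted p of 0.164 to 0.964. At 24 h, 4 of 8 members were therefore called higher on deposited TPM, where 13.2% of all genes were called higher and 0.548% lower, and 2 of 8 after scaling, where 7.85% were called higher and 8.15% lower.

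**Figure D2:**
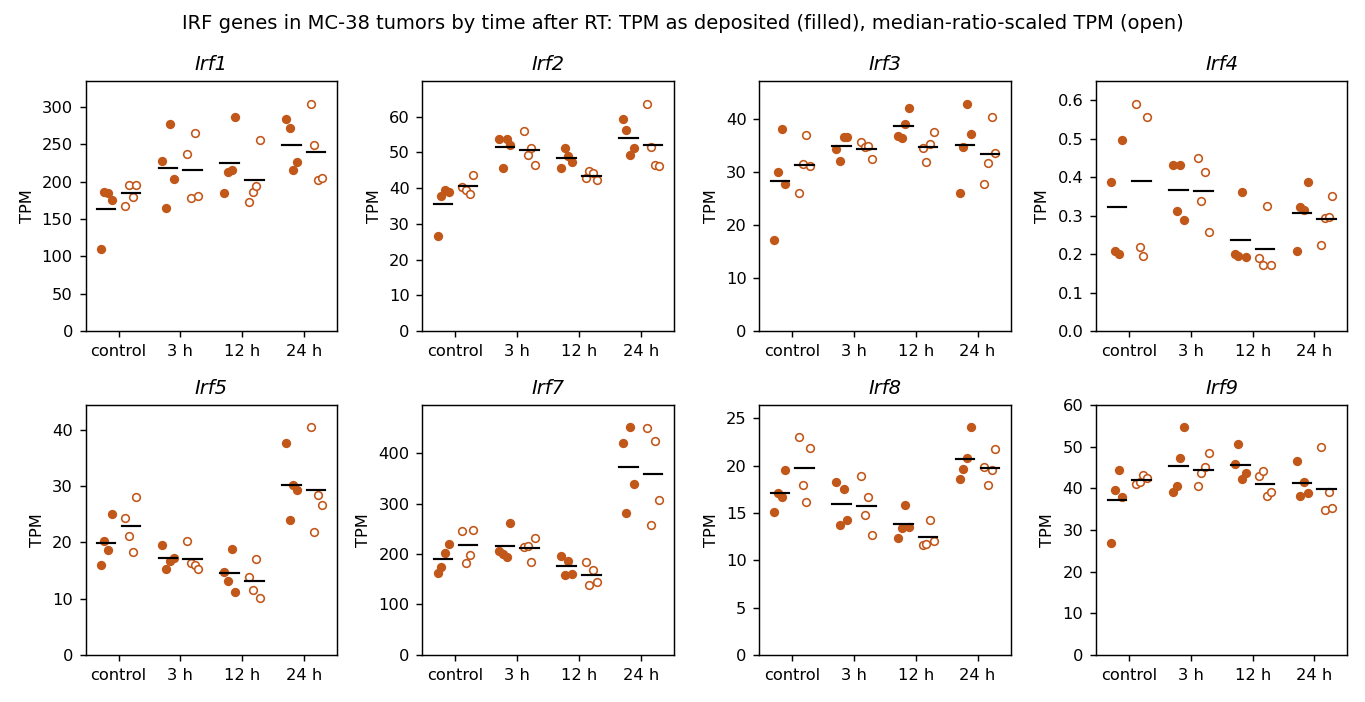
Level of each IRF gene (TPM, linear axis from 0) in each MC-38 mouse by group, 4 mice per group, as deposited (filled points) and after median-ratio scaling (open points), with black lines at the group means. Irf7 stood at 281 to 451 TPM at 24 h against 161 to 221 TPM in controls, and Irf5 and Irf8 were lowest at 12 h, with group means of 14.5 and 13.8 TPM as deposited.

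At 12 h in MC-38 tumors, the IRF genes split by direction, and the calls turned with the scaling. On deposited TPM, Irf2 was the 1 member called, at 45.5, 51.3, 49.1 and 47.3 TPM against 26.5 to 39.5 TPM in controls (log2 fold change 0.45 ± 0.12, adjusted p = 0.0189). Without RT mouse 2 its adjusted p was 0.0563. After scaling the change of Irf2 was 0.10 ± 0.09 (adjusted p = 0.436), beside a median over all genes of 0.33 before and 0.01 after scaling. After scaling, 2 members fell instead. Irf8, the factor of the monocyte and dendritic cell lineages, measured 12.4, 13.5, 15.8 and 13.5 TPM against 15.1, 17.1, 16.7 and 19.5 TPM in controls as deposited, and its log2 fold change was -0.30 ± 0.13 (adjusted p = 0.0759) before and -0.64 ± 0.13 (adjusted p = 0.00717) after scaling. Irf5 measured 14.8, 13.1, 18.8 and 11.2 TPM, and its change was -0.45 ± 0.17 (adjusted p = 0.0544) before and -0.79 ± 0.19 (adjusted p = 0.0141) after scaling. On scaled values every 12 h mouse lay below every control for both genes, while on deposited values both overlapped. Irf5 also passed the threshold on deposited TPM without RT mouse 3 (adjusted p = 0.0377), and Irf1, Irf3 and Irf9 passed it, higher, without control mouse 3 (0.0434, 0.0126 and 0.0372). Irf7 measured 159 to 195 TPM, a change of -0.11 ± 0.15 (adjusted p = 0.567) that became -0.46 ± 0.16 after scaling (adjusted p = 0.0688). Thus 1 of 8 members was called higher and 0 lower on deposited TPM, where 28.5% of all genes were called higher and 2.59% lower, and 0 higher and 2 lower after scaling, where 6.34% were called higher and 9.84% lower.

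At 3 h in MC-38 tumors no member was called by limma on deposited TPM or after scaling. A limma unadjusted p under 0.05 was found for 2 members on deposited TPM and 3 after scaling. Of the 15699 genes tested, it was found for 3130 on deposited TPM and 2655 after scaling. Dunnett's comparisons on TPM called 1 member, and the share of all genes that they call is not given here. Irf2 came nearest, with 53.8, 45.7, 53.7 and 52.2 TPM, each above every control. Its log2 fold change was 0.53 ± 0.12 (adjusted p = 0.0774) and 0.32 ± 0.09 after scaling (adjusted p = 0.109), and without control mouse 3 it passed the threshold (adjusted p = 0.0389). Irf7 at 3 h measured 194 to 262 TPM and Irf1 165 to 277 TPM, both overlapping the controls. Of all genes, 0.051% were called higher and 0.0127% lower on deposited TPM, and 0.293% and 0.357% after scaling.

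Irf5, Irf7 and Irf8 in MC-38 tumors thus had their lowest mean at 12 h and their highest at 24 h on deposited TPM, with every 24 h mouse above every 12 h mouse on both scales. This contrast of the RT groups is given as a description, without a test, and the share of all genes that show this separation was not counted. The macrophage markers moved with it in part. The 8 markers, all detected, summed to 855 to 1357 TPM in controls, 602 to 932 at 3 h, 312 to 737 at 12 h and 696 to 877 TPM at 24 h, and after scaling to 832 to 1704, 535 to 949, 279 to 664 and 636 to 825. C1qa, their most abundant gene and a complement subunit, averaged 326 ± 60.8, 235 ± 41.3, 144 ± 57.9 and 216 ± 28.4 TPM in the same order. In MC-38 RT 12 h mouse 3, the mouse with the highest macrophage sum of its group (737 TPM), Irf5 (18.8 TPM) and Irf8 (15.8 TPM) were also highest, while Irf7 was highest in mouse 1 (195 TPM). In mouse 4, with the lowest sum (312 TPM), Irf5 was lowest (11.2 TPM), while Irf8 was lowest in mouse 1 (12.4 TPM) and Irf7 in mouse 2 (159 TPM). The 5 T cell markers, of which Cd3g was the most abundant, summed to 13.3 to 20.8 TPM in controls and 6.43 to 13.5 TPM at 12 h and 24 h. The part of these cells in the IRF changes was not tested.

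**Figure D3:**
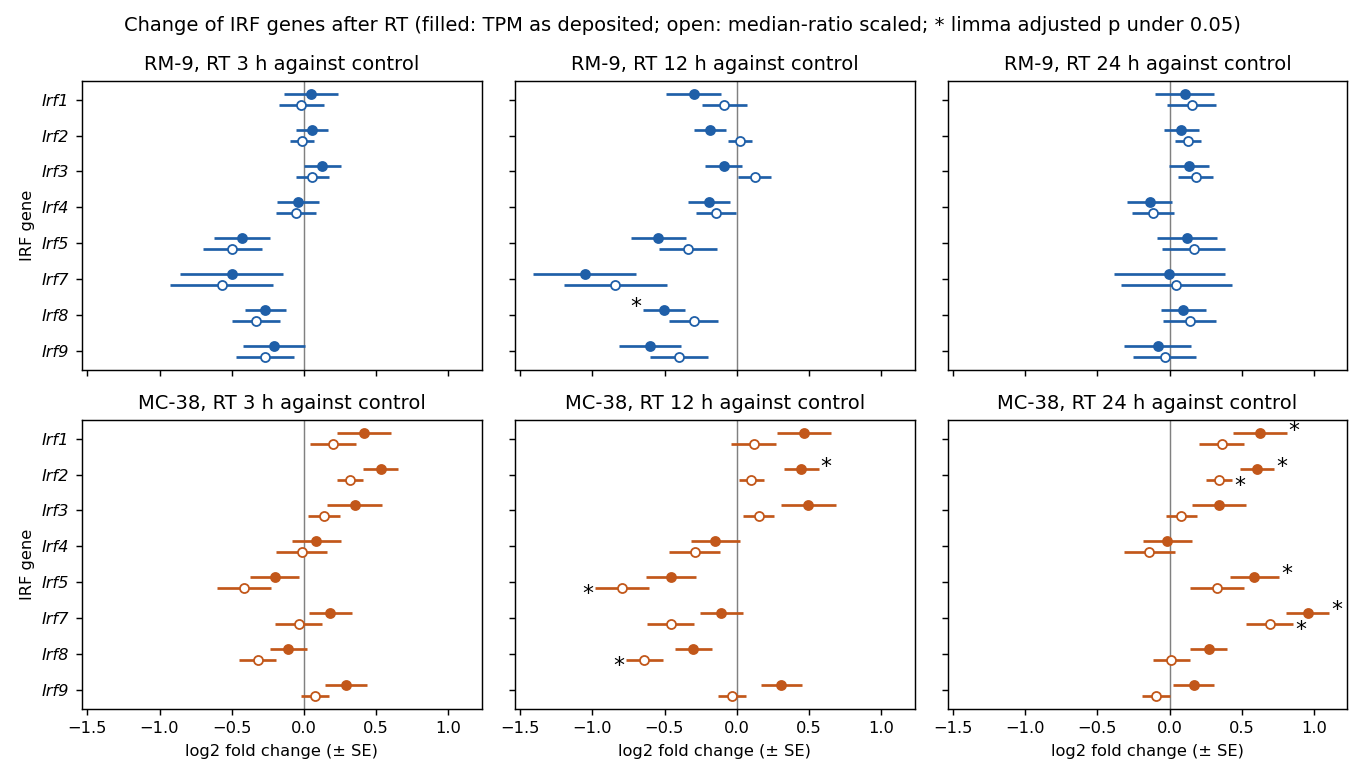
Log2 fold change (± SE from the limma fit) of each IRF gene at each time after RT against the 4 controls of its model, RM-9 in blue and MC-38 in orange, on deposited TPM (filled) and after median-ratio scaling (open), with an asterisk where the adjusted p is under 0.05. Irf2 and Irf7 in MC-38 at 24 h carry an asterisk on both scales, and in RM-9 the 1 asterisk is that of Irf8 at 12 h on deposited TPM.

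In RM-9 tumors no IRF change was called on both scales. At 12 h all 8 log2 fold changes were below 0 on deposited TPM and 6 of 8 were below 0 after scaling. Irf8 measured 11.7, 10.1, 8.09 and 9.39 TPM in controls and 7.03, 5.32, 7.81 and 6.96 TPM at 12 h, every RT mouse below every control. The log2 fold change was -0.51 ± 0.14 (limma adjusted p = 0.0465; exact permutation p = 0.0286), against a median over all genes of -0.19. After scaling the change was -0.30 ± 0.17 (adjusted p = 0.429), and on deposited TPM it lost its call in 6 of 8 fits with 1 mouse left out. These were the fits without control mouse 1, 2 or 4 (adjusted p = 0.102, 0.0933 and 0.122) and without RT mouse 1, 2 or 4 (0.0924, 0.0885 and 0.0912).

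Irf7 had the most negative change of the 8 members at 12 h, with 1 mouse apart from the other 3. It measured 27.0, 31.4, 20.9 and 38.7 TPM in RM-9 controls and 12.1, 11.1, 26.4 and 9.53 TPM at 12 h. Its log2 fold change was -1.05 ± 0.36 (adjusted p = 0.0706) and -0.84 ± 0.36 after scaling (adjusted p = 0.292). Without RT mouse 3, the high mouse, it was -1.37 (adjusted p = 0.0387). Irf9 followed the same mice, at 4.48, 4.38, 6.98 and 4.26 TPM against 6.27 to 8.66 TPM in controls, a change of -0.60 ± 0.21 (adjusted p = 0.0812) that was -0.76 without RT mouse 3 (adjusted p = 0.0486). Irf5 changed by -0.54 ± 0.19 (adjusted p = 0.0811), and by -0.66 without control mouse 3 (adjusted p = 0.0489). The skeletal muscle markers were also highest in RT mouse 3 of this group, at 855 TPM against 2.75 to 74.7 TPM in the other 3 mice. Irf1, Irf2, Irf3 and Irf4 changed by -0.30 to -0.09 and were not called, with adjusted p of 0.261 to 0.659. At 12 h, 1 of 8 members was therefore called lower and 0 higher on deposited TPM, where 8.3% of all genes were called lower and 0.0714% higher. After scaling no member was called by limma (1 had an unadjusted p under 0.05), where 0.0428% of all genes were called lower and 0.0928% higher. A limma unadjusted p under 0.05 was found there for 2109 of the 14014 genes tested.

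At 3 h and 24 h no RM-9 member was called by limma on either scale, nor by Dunnett's comparisons on TPM. At a limma unadjusted p under 0.05 there was 1 member at 3 h and 0 at 24 h, on deposited TPM and after scaling alike. Of the 14014 genes tested, 3060 had such a p at 3 h on deposited TPM and 3998 after scaling. At 24 h there were 681 and 945. At 3 h the largest changes were those of Irf7, -0.50 ± 0.36 (adjusted p = 0.406), and Irf5, -0.43 ± 0.19 (adjusted p = 0.212). At 24 h the changes lay between -0.14 and 0.13. Irf7 at 24 h measured 46.9, 23.7 and 21.3 TPM in the 3 mice, so that 1 mouse lay above all controls and the other two within their range. Of all genes, 0.2% were called higher and 0.0285% lower at 3 h on deposited TPM, 1.61% and 1.13% after scaling, and 0% in each direction at 24 h on both.

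**Figure D4:**
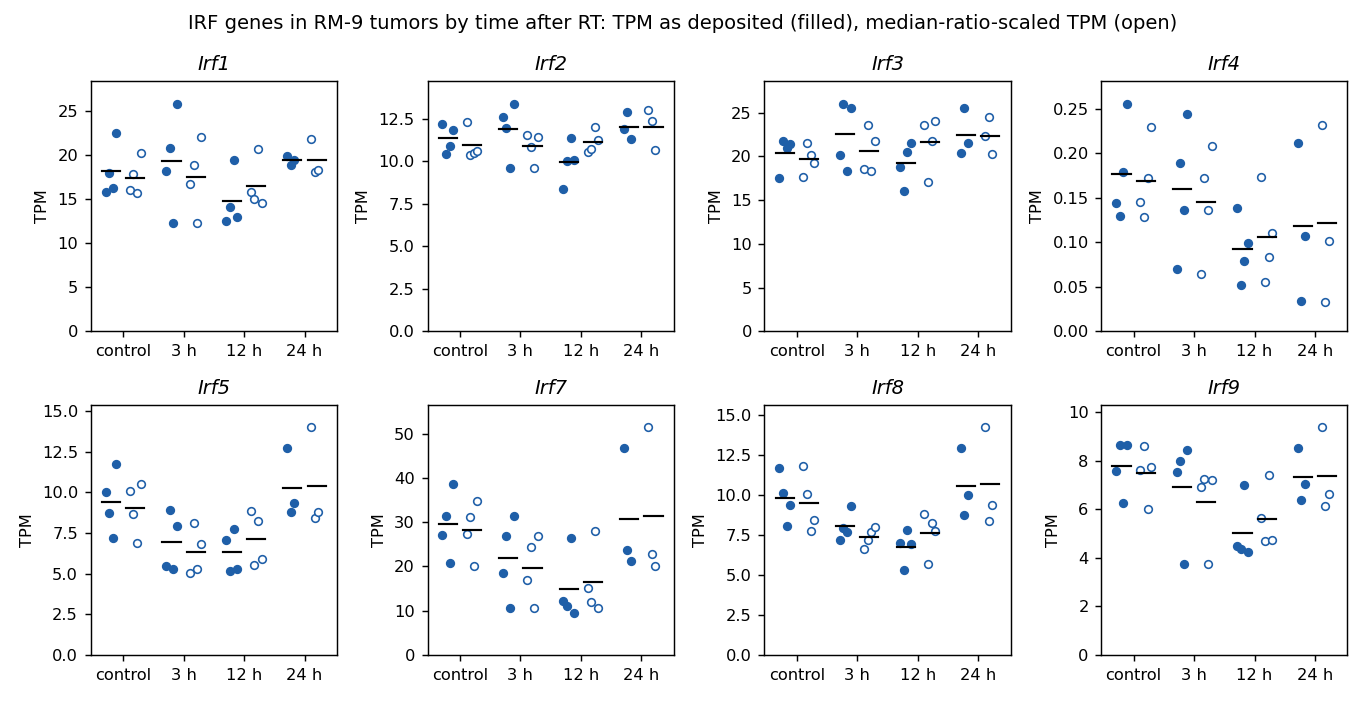
Level of each IRF gene (TPM, linear axis from 0) in each RM-9 mouse by group, 4 mice per group and 3 at 24 h, as deposited (filled) and after median-ratio scaling (open), with black lines at the group means. At 12 h, 3 of 4 mice had Irf7 at 9.53 to 12.1 TPM and the fourth at 26.4 TPM, against 20.9 to 38.7 TPM in controls.

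Whether the response to RT differed between the models was tested as the MC-38 change minus the RM-9 change. At 12 h, 4 of 8 members were called on deposited TPM, each with the more positive change in MC-38. These were Irf9 (log2 difference 0.91 ± 0.27, limma adjusted p = 0.0108), Irf1 (0.77 ± 0.28, adjusted p = 0.0301), Irf2 (0.63 ± 0.16, adjusted p = 0.00561) and Irf3 (0.59 ± 0.24, adjusted p = 0.0473). Of all genes 43.2% were called at 12 h on deposited TPM. After scaling 0 of 8 were called and 0 had an unadjusted p under 0.05, with 2.65% of all genes called. A limma unadjusted p under 0.05 was found there for 3228 of the 16142 genes tested. On deposited TPM the median difference over all genes at 12 h was 0.49, and after scaling it was 0.02. The Irf2 and Irf9 calls held with each of the 16 mice left out in turn. The Irf1 call was lost in 5 such fits, without RM-9 control mouse 4 (adjusted p = 0.0714), RM-9 RT mouse 1 or 4 (0.0662 and 0.0551), MC-38 control mouse 1 (0.0960) or MC-38 RT mouse 4 (0.0711). The Irf3 call was lost in 11 of 16, with adjusted p of 0.0538 to 0.152, namely without RM-9 control mouse 2, 3 or 4, RM-9 RT mouse 1 or 2, MC-38 control mouse 1 or 4, or any of the 4 MC-38 RT mice. Irf7, at 0.95 ± 0.41 (adjusted p = 0.0589), passed the threshold without RM-9 control mouse 3 (0.0406) or RM-9 RT mouse 3 (0.0119). The scaled difference of Irf9 was 0.40 (95% interval -0.08 to 0.88) and that of Irf7 0.42 (-0.42 to 1.27), and both intervals held 0. At 3 h and 24 h no member was called by limma on either scale. On deposited TPM 1 member at 3 h and 2 at 24 h had an unadjusted p under 0.05, and after scaling 1 member at each time, where 0% and 2.25% of all genes were called before and 0.031% and 1.72% after scaling. Of the 16142 genes tested, such a p was found for 1587 and 3496 on deposited TPM, and 1678 and 2502 after scaling. Without MC-38 control mouse 3 the Irf2 difference at 24 h passed the threshold on deposited TPM (0.58, adjusted p = 0.0379). The Irf7 difference at 24 h was 0.96 ± 0.42 (adjusted p = 0.186) and 0.70 after scaling (95% interval -0.17 to 1.58).

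The other genes of the pathway in MC-38 tumors at 24 h were called in 1 direction. Of the 72 tested genes on 6 lists, 41 were called higher and 0 lower on deposited TPM, and 32 higher and 0 lower after scaling. Over all genes tested, 13.2% were called higher and 0.548% lower on deposited TPM, so few genes of any kind were called lower there. After scaling the shares were 7.85% and 8.15%. The interferon ligands begin the chain. Ifnb1, interferon beta, which Irf3 and Irf7 switch on, measured 0.663, 0.616, 1.01 and 0.443 TPM in controls and 7.39, 2.40, 4.33 and 3.39 TPM at 24 h, all above the controls. Its log2 fold change was 1.97 ± 0.25 (adjusted p = 0.000361), and 1.79 after scaling (adjusted p = 0.000846). At 3 h and 12 h Ifnb1 measured 1.16 to 1.88 and 1.41 to 1.83 TPM. Ifng, interferon gamma, changed by 0.08 ± 0.29 at 24 h (adjusted p = 0.866). The other 7 ligands reached at most 1.75 TPM (Ifna4) in any library, and Ifna2 and Ifnl2 were listed at 0 in all 31.

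Of the 17 type I interferon-stimulated genes, 17 were called higher at 24 h on deposited TPM and 15 after scaling, with a median log2 fold change of 0.93 and 0.67 against 0.22 and -0.02 over all genes. Mx1, a GTPase that blocks virus replication, went from 22.0 ± 9.29 to 66.9 ± 15.9 TPM (log2 fold change 1.67 ± 0.26, adjusted p = 0.00116). Ifit3, which binds viral RNA together with Ifit1, went from 127 ± 27.4 to 361 ± 92.7 TPM (1.49 ± 0.18, adjusted p = 0.000289), and Mx2 from 10.9 ± 5.51 to 28.9 ± 6.49 TPM. The 2 genes that lost their call after scaling were Bst2 and Rtp4. Of 18 sensors, adaptors and kinases, 9 were called higher (7 after scaling), with Tlr3 from 16.02 ± 3.95 to 38.1 ± 6.88 TPM, Ifih1 from 23.0 ± 6.29 to 49.5 ± 12.1 TPM and Mavs, the adaptor of the RNA sensors, from 23.8 ± 6.84 to 48.3 ± 6.55 TPM. The kinases of Irf3 and Irf7 were not called, with Tbk1 at 0.43 (adjusted p = 0.0882) and Ikbke at 0.48 (adjusted p = 0.137). Of 9 receptor and JAK-STAT genes, 5 were called higher (3 after scaling), among them Stat2 (47.0 ± 17.2 to 79.6 ± 6.95 TPM) and the kinase Jak2 (15.3 ± 3.02 to 21.7 ± 1.14 TPM), while Irf9 was not called. Of 15 interferon gamma-induced genes, 9 were called higher (6 after scaling), led by the GTPase Gbp5, from 33.7 ± 6.54 to 82.1 ± 5.52 TPM, with Cd274, the checkpoint ligand PD-L1, from 18.8 ± 4.76 to 38.9 ± 5.54 TPM and Cxcl10 from 841 ± 185 to 1702 ± 534.5 TPM. Of the 11 IRF partners and cofactors none was called on either scale at 24 h.

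**Figure D5:**
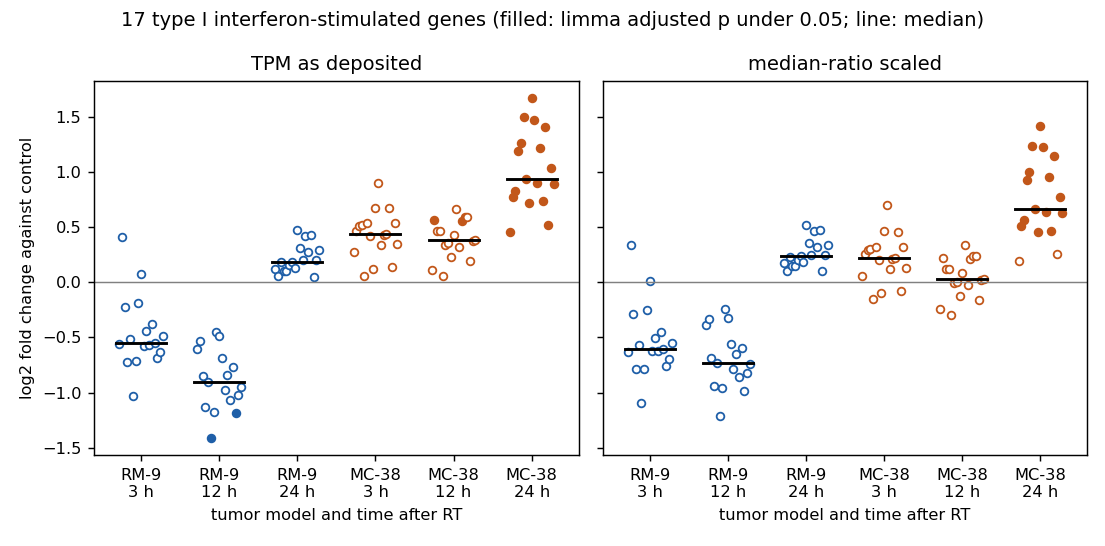
Log2 fold change against control of each of 17 type I interferon-stimulated genes at each time after RT, RM-9 in blue and MC-38 in orange, on deposited TPM (left) and after median-ratio scaling (right), with filled points where the limma adjusted p is under 0.05 and a black line at the median. In MC-38 at 24 h 17 and 15 points are filled and the medians are 0.93 and 0.67, while in RM-9 at 12 h 2 and 0 points are filled and the medians are -0.91 and -0.73.

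At 12 h in MC-38 tumors, 23 of 72 pathway genes were called higher and 4 lower on deposited TPM, and 5 higher and 5 lower after scaling. Over all genes tested, 28.5% were called higher and 2.59% lower on deposited TPM, and 6.34% and 9.84% after scaling. The 4 genes lower on deposited TPM, Spi1, Tlr7, Tlr9 and Cxcl9, were also called lower after scaling, together with Ifnar2. Spi1, the PU.1 factor that binds DNA together with Irf4 and Irf8, fell from 29.4 ± 5.76 to 13.4 ± 4.94 TPM (log2 fold change -1.15 ± 0.23, adjusted p = 0.0084). Tlr7 and Tlr9, the endosomal receptors that signal to Irf5 and Irf7 through Myd88, fell from 6.26 ± 1.16 to 2.92 ± 1.05 TPM and from 6.78 ± 1.42 to 3.32 ± 0.947 TPM. Cxcl9, an interferon gamma-induced chemokine, fell from 57.9 ± 13.1 to 36.9 ± 4.59 TPM. Mavs rose, from 23.8 ± 6.84 to 48.7 ± 6.57 TPM (1.06 ± 0.19, adjusted p = 0.0067), and was called after scaling too, as were Gbp5, Ddx58, Mb21d1 and the coactivator Crebbp. Ifnb1 (0.86 ± 0.25, adjusted p = 0.0232), Jak1 (0.51), Oasl2 (0.59), Eif2ak2 (0.56), Oasl1 (0.55), Nlrc5 (0.79) and Ep300 (0.71) were called higher on deposited TPM alone, with adjusted p of 0.0938 to 0.374 after scaling. At 3 h no pathway gene was called on deposited TPM, and after scaling 1 was, Tlr9, which was lower by 1.204 on the log2 scale (adjusted p = 0.041).

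In RM-9 tumors at 12 h, 9 of 67 tested pathway genes were called lower and 0 higher on deposited TPM, and after scaling 0 were called. Over all genes tested, 8.3% were called lower on deposited TPM and 0.0428% after scaling. The 9 genes were Ifit3 (15.1 ± 4.27 to 5.81 ± 3.74 TPM; log2 fold change -1.41 ± 0.39, adjusted p = 0.0418), Rtp4 (10.7 ± 3.41 to 4.51 ± 2.12 TPM), the immunoproteasome subunits Psmb8 (13.9 ± 3.30 to 6.72 ± 1.81 TPM) and Psmb9 (6.41 ± 1.80 to 2.71 ± 0.739 TPM), the adaptors Myd88 and Tmem173, the interferon gamma receptor chain Ifngr1, and Batf and Irf2bp1, which partner IRFs. The median log2 fold change of the 17 interferon-stimulated genes at 12 h was -0.91 before and -0.73 after scaling, against -0.19 and 0.01 over all genes, and at 24 h it was 0.19 before and 0.23 after. At 3 h and 24 h no pathway gene was called in RM-9, except Chuk at 3 h after scaling (0.34, adjusted p = 0.0471). Ifnb1 was at 0 to 0.084 TPM in all 15 RM-9 libraries. The macrophage markers summed to 377 to 600.0 TPM in RM-9 controls, 268 to 409 at 3 h, 189 to 371 at 12 h and 446 to 565 TPM at 24 h. The leukocyte markers summed to 122 to 200.2 TPM in controls and 74.9 to 124 TPM at 12 h. The T cell markers summed to 4.68 to 8.80 and 1.38 to 4.61 TPM, and the 4 NK cell markers to 6.12 to 9.54 and 3.04 to 5.45 TPM. On deposited TPM the macrophage, T cell and NK cell sums at 12 h lay below those of all controls. After scaling these 12 h sums overlapped the controls, at 201 to 467 against 362 to 575 for macrophages. The scaled T cell sums were 1.54 to 5.80 against 4.49 to 7.93, and the scaled NK cell sums 3.25 to 6.85 against 5.87 to 9.48. At 3 h the scaled sums of macrophage (245 to 351) and T cell markers (1.38 to 3.56) lay below those of all controls. The scaled NK cell sums at 3 h (2.45 to 6.43) overlapped the controls. The part of these cells in the IRF values was not tested.

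The genes whose levels followed each member most closely over the 15 RM-9 and 16 MC-38 libraries were ranked by the mean of the 2 within-model Pearson correlations of scaled values, among 12256 genes. The closest patterns were those of Irf5 with Slc15a3 (mean r 0.95), Slfn2 (0.94) and Slfn1 (0.93), of Irf7 with Phf11a (0.95), Ifi205 (0.94) and Phf11b (0.94), and of Irf8 with Cd86, a costimulatory ligand of antigen-presenting cells (0.93), Bcl2a1a (0.92) and Bcl2a1d (0.92). Irf4 came next with Frmd4b (0.82), Sla (0.81) and Prex1 (0.80), then Irf1 with Irgm1 (0.78), Parp14 (0.77) and Irgm2 (0.77). The weakest were Irf2 with Gata2 (0.75), Irf3 with Tcirg1 (0.74) and Irf9 with Psip1 (0.71). Phf11a and Phf11b, Slfn1 and Slfn2, and Bcl2a1a and Bcl2a1d are near-identical or related copies, so their reads may be shared. These points share the libraries, the groups and the depth of the study, and the correlations are descriptions.

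Between members, Irf5 and Irf7 followed each other in both models (Pearson r 0.83 over 15 RM-9 and 0.88 over 16 MC-38 libraries), as did Irf5 and Irf8 (0.84 and 0.87). Other pairs differed between the models. Irf9 with Irf7 had r = 0.93 in RM-9 and 0.03 in MC-38, and Irf9 with Irf1 had 0.84 and 0.02. Irf1 with Irf7 had 0.85 and 0.27. Irf3 had r between -0.40 and 0.35 with the other 7 members. No test was made of these differences.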

How the data were processed

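Poly(A) RNA of tumors from 31 mice (15 RM-9, 16 MC-38) was sequenced with a stranded TruSeq kit (single end, 75 bases). The authors deposited TPM, FPKM and coverage per gene for each library. TPM was scaled by the authors to the same total in each library, FPKM was deposited as fragments corrected for gene length and library size, and coverage was deposited as signal, the mean read depth per base without scaling. The submitters' processing notes name bcl2fastq 2.17 and GRCm39, while the positions match GENCODE M21 on GRCm38 (91.1% with the same start or end). The aligner and counting program are not given in the sources used here. Counts were not used here, so no counting error is given. Depth came from the ratio of coverage to FPKM.

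For the main fits, limma 3.58.1 in R 4.3.3 (lmFit, eBayes with trend) was run on log2(TPM + 0.5). Genes entered at a mean of 0.5 TPM or more, and all 8 members were kept: 14014 genes in RM-9, 15699 in MC-38, and 16142 in the joint fit of 8 groups used for the control and interaction contrasts. Fold changes are on this log2 scale, which understates changes of low genes such as Irf4. Benjamini-Hochberg adjustment ran within each comparison, with a threshold of 0.05. Exact two-sided permutation tests of mean TPM used 70 assignments (4 against 4 mice) or 35 (3 against 4), with a smallest p of 0.0286. The fits were also run on simulated data with noise drawn separately for each gene. No shift shared by all genes of a library was simulated, so that run could not test the effect of scaling. Members, lists and the rule for named genes (all members; per pathway list and comparison the 3 largest changes with adjusted p under 0.05; per marker list the most abundant gene; the 3 most alike genes) were chosen with earlier results of these data known; a few genes the rule names are not reported here, and genes named beyond the rule were chosen after their values were seen. Of the 13 marker lists, those for plasmacytoid and other dendritic cells, NK cells, B cells, neutrophils and fibroblasts are in the closing section. Scripts ran in Python 3.11.15 (matplotlib 3.10.9, scipy 1.17.1, pandas 2.3.3, numpy 2.4.6). Same-numbered mice did not deviate together (correlations -0.39 to 0.32 in RM-9 and -0.48 to 0.55 in MC-38), so mice were not paired. No 2 libraries were identical. Alternatives were median-ratio scaling, TPM without mitochondrial genes, other pseudocounts (0.1 and 1) and filters (none, or a mean TPM of at least 5), fits of only the compared groups, a replicate block, Dunnett's comparisons, and each mouse left out. FPKM and scaled coverage were added after seeing the data.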

Additional observations from a re-analysis of the deposited data

Results flagged for a closer look

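Of the 56 sets of 4 mice of 1 group and 1 gene, 5 held a mouse far from the other 3 by Dixon's criterion, and chance gives about 5% of sets. In MC-38 control mouse 1, Irf1 was 109.9 TPM against 175 to 186 TPM in the others and Irf2 was 26.5 TPM against 37.8 to 39.5 TPM. In that library mt-Nd4l held 29.6% of all TPM, and after median-ratio scaling its Irf1 was 167 against 180.3 to 196 and its Irf2 40.4 against 38.4 to 43.7. In RM-9 RT 12 h mouse 3, Irf7 was 26.4 TPM against 9.53 to 12.1 TPM and Irf9 was 6.98 TPM against 4.26 to 4.48 TPM, and after scaling they were 28.0 against 10.6 to 15.2 and 7.40 against 4.68 to 5.63. In MC-38 RT 12 h mouse 3, Irf4 was 0.361 TPM against 0.194 to 0.202 TPM, a level that rests on few reads.

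The change at 12 h differed between the tumor models in 4 members on deposited TPM by limma's interaction contrast. Their log2 differences (MC-38 minus RM-9) were 0.77 for Irf1, 0.63 for Irf2, 0.59 for Irf3 and 0.91 for Irf9. In that contrast 43.2% of all genes tested were called on deposited TPM, and the median difference over all genes was 0.49. Such a call was thus common among all genes and not particular to these members. After median-ratio scaling the 4 differences were 0.24, 0.11, 0.06 and 0.40, with limma adjusted p of 0.341 to 0.888, where 2.65% of all genes were called.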

How the results depend on the processing

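The number of IRF genes called (limma adjusted p under 0.05) depended mainly on the scaling. With median-ratio scaling it was 0 at 12 h in RM-9, 2 in MC-38 at 12 h and 2 at 24 h, 4 between the controls and 0 for the difference between models at 12 h. With TPM without mitochondrial genes it was 0 at 12 h in RM-9, 1 at 3 h and 3 at 12 h in MC-38, and 0 for the difference at 12 h. With FPKM, and likewise with coverage scaled by aligned bases, it was 0 at 12 h in RM-9, 1 in MC-38 at 3 h, 2 at 12 h and 2 at 24 h, and 0 for the difference at 12 h. Without a filter on low values it was 0 at 12 h in RM-9, 2 at 24 h in MC-38 and 2 for the difference at 12 h. With a mean TPM of at least 5 it was 3 at 12 h in MC-38. When a fit held no other groups than the 2 compared, it was 0 at 12 h in RM-9, 0 in MC-38 at 12 h and 1 at 24 h (Irf7; Irf1, Irf2 and Irf5 lost their calls). Dunnett's comparisons gave 1 at 3 h in MC-38. With the replicate block it was 0 at 12 h in RM-9 and 2 at 12 h in MC-38, and no other count of calls moved by over 1.5 times. Pseudocounts of 0.1 and 1 moved no call of a member or count of members. Over all genes tested the calls moved too. At 12 h in MC-38 there were 3239 higher and 676 lower of 15672 without mitochondrial genes, and 1387 and 1152 of 15699 with FPKM. With a mean TPM of at least 5 there were 4158 and 260 of 10925, and with the replicate block 5259 and 417 of 15699. When only the 2 groups compared were fitted there were 669 and 123 of 15699. Counts over all genes for the other comparisons in these settings are not given here.

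With each mouse left out in turn, the number of calls ranged from 0 to 3 at 12 h in RM-9, from 0 to 1 at 3 h in MC-38, 0 to 4 at 12 h there and 2 to 4 at 24 h, from 6 to 8 between the controls, and from 2 to 5 at 12 h and 0 to 1 at 24 h for the difference between models. It was 0 in every such fit at 3 h and 24 h in RM-9 and for the difference at 3 h. The calls over all genes varied as well. At 12 h in MC-38, the fit without control mouse 3 called 4 members higher, and 6759 of 15712 genes higher and 533 lower. The fit without RT mouse 2 called 0 members, and 1267 of 15703 genes higher and 176 lower.

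The difference of Irf3 between the controls turned to -0.25 with median-ratio scaling (adjusted p = 0.0611), -0.0145 without mitochondrial genes (0.932), -0.0412 with FPKM (0.793) and -0.14 with scaled coverage (0.154). Over all genes, calls at 12 h were 4469 higher and 406 lower in MC-38 on deposited TPM and 995 and 1544 after median-ratio scaling, and 10 and 1163 against 13 and 6 in RM-9. At 24 h in MC-38 they were 2073 and 86 against 1232 and 1280. The cause of these differences was not tested. Read depth could not be turned into a counting error for single genes, and Irf4 stayed under 0.5 TPM in all libraries.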

Other observations

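Levels of other cell type markers, of which only those of NK cells were compared above (RM-9 at 12 h), are given here without a test. The 4 NK cell markers (Prf1 the most abundant) summed to 20.04 to 41.5 TPM in MC-38 controls and 23.1 to 52.0 TPM at 24 h, and to 6.12 to 9.54 and 3.65 to 8.89 TPM in RM-9 at the same times. The 6 neutrophil markers (S100a9 the most abundant) summed to 11.3 to 25.1 TPM in MC-38 controls and 20.4 to 36.8 TPM at 24 h, and to 12.4 to 19.5 and 13.9 to 31.2 TPM in RM-9. The 6 B and plasma cell markers (Cd79a the most abundant) reached at most 1.13 TPM in sum in any RM-9 library, with 5 of 6 under 0.5 TPM on average in the controls, and 11.3 TPM in MC-38. The 5 dendritic cell markers (Zbtb46 the most abundant over all libraries) summed to 4.83 to 5.66 TPM in MC-38 controls and 5.65 to 8.71 TPM at 24 h. The 4 markers of plasmacytoid dendritic cells, the main source of type I interferon in viral infection, summed to 33.2 to 128 TPM in MC-38 controls and 19.0 to 45.7 TPM at 24 h, with 2 of 4 under 0.5 TPM on average in both; their most abundant gene, Cox6a2, averaged 48.0 ± 48.9 TPM in those controls and is also known as a muscle subunit of cytochrome oxidase. The 4 fibroblast markers (Col1a1 the most abundant) summed to 342 to 463 TPM in MC-38 controls and 414 to 731 TPM at 24 h.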
